A study of Mus musculus with 2 samples.

Results

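Chemokine receptors, sphingosine-1-phosphate (S1P) receptors and integrin chains were examined as 1 set of trafficking and adhesion genes in mouse cultures labelled TH9, a kind of CD4 helper cell that makes IL-9. Members were taken by gene symbol, and the set was chosen with earlier results of these data known. They are all numbered Ccr, Cxcr, Ackr and S1pr genes with Ccrl2, Xcr1 and Cx3cr1, and the α and β chains of integrins. A probe was matched to 52 of them, among 20651 genes matched on the array. They comprise 5 S1P receptors, 18 chemokine receptors, 5 atypical receptors, 16 integrin α chains and 8 integrin β chains. Itga10 and Itgae were not analysed here.

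The knockout sample came from mice labelled SIRT1flox/flox-CD4-Cre, in which a Cre recombinase under Cd4 control acts on floxed Sirt1 alleles, and the other sample from mice labelled wild-type. Each genotype had 1 array. The labels give no age, and do not say how many mice stood behind a sample or whether the wild-type mice carried Cre or floxed alleles. Both cultures started from naive CD4 T cells sorted from spleen and lymph node. They were stimulated with 2 µg/ml anti-CD3 and 2 µg/ml anti-CD28, in 100 U/ml human IL-2, with TGFβ1 at 2 ng/ml and IL-4 at 10 ng/ml. Culture lasted 5 days by the sample descriptions and 5 to 6 days by the protocol.

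Each array carried 43020 gene spots, and 65.3% of them were well above background on the knockout array and 57.1% on the wild-type array. With 1 array per genotype no test was possible, and every error below is the scanner software's own error of the 2 spots, which holds no biological spread. The Sirt1 probe read 2920 on the knockout array and 3240 on the wild-type array, a log2 difference of -0.08 ± 0.20. The exons that were floxed and the place of this probe in the transcript are not stated in the labels or files, so it checks nothing about the label. On neither array was Il9, the cytokine TH9 cells are named for, well above background. Of the other genes in the list of 4 TH9 markers, Irf4 and Batf were above it on both arrays and Spi1 on the knockout array alone. All 8 B cell markers and all 7 matched macrophage and monocyte markers were above it on both. The values below are those of the RNA hybridised, and fewer cells of a type cannot be told apart from less RNA per cell.

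Chemokine receptors are G protein-coupled receptors that steer cells along gradients of chemokines, and atypical receptors bind chemokines without that signalling. S1P receptors read the lipid S1P, which is abundant in blood and lymph and scarce inside lymphoid tissue, so that S1PR1 draws lymphocytes out of spleen and lymph node. Integrins are pairs of an α and a β chain that bind matrix or counter-receptors on other cells once signals from chemokine receptors have activated them.

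A level here is the log2 of a spot's processed signal less that array's 75th percentile, which was a signal of 520 on the knockout array and 544 on the wild-type array. A difference is the knockout level minus the wild-type level. Probes bind with different strength, so signals are compared between arrays for 1 probe and never between genes. Of the 52 members, 42 were well above background on both arrays, 4 on the knockout array alone and 6 on neither. Of the 20651 genes matched, 12958 were above it on both arrays and 14871 on at least 1. The dimmest probe called well above background read 8.96 on the knockout array and 24.6 on the wild-type array. A dim gene could thus be called on the knockout array at a signal too low for a call on the other. The share of all genes called on the knockout array alone was not counted. Among the 42, 4 were higher on the knockout array by at least 2-fold (Itga1, Ccr10, Cx3cr1 and S1pr5), 3 were lower by as much (Itgav, S1pr4 and S1pr1) and 35 lay within 2-fold. Over the 12958 genes above background on both arrays, 3.95% were at least 2-fold higher and 3.63% at least 2-fold lower, 7.59% in all, against 9.52% higher, 7.14% lower and 16.7% in all for these members. The members' median difference was 0.23, and that of all genes was 0.00 with its 25th and 75th percentiles at -0.30 and 0.28. Of the members 27 were higher and 15 lower by any amount, that is 64.3% higher against 50.4% of all genes, and 11 lay within their own scanner error of 0.

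How many genes lie on each side depends on the scaling. Of all genes past 2-fold, 52.1% were higher with the 75th percentile, 73.3% with each array centred on its median, 63.8% with quantile normalization, 66.5% with loess and 63.9% in the authors' deposited table. With normexp background correction that share was 14.9%. Centring on the median moved the median of all genes to 0.19.

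**Figure D1:**
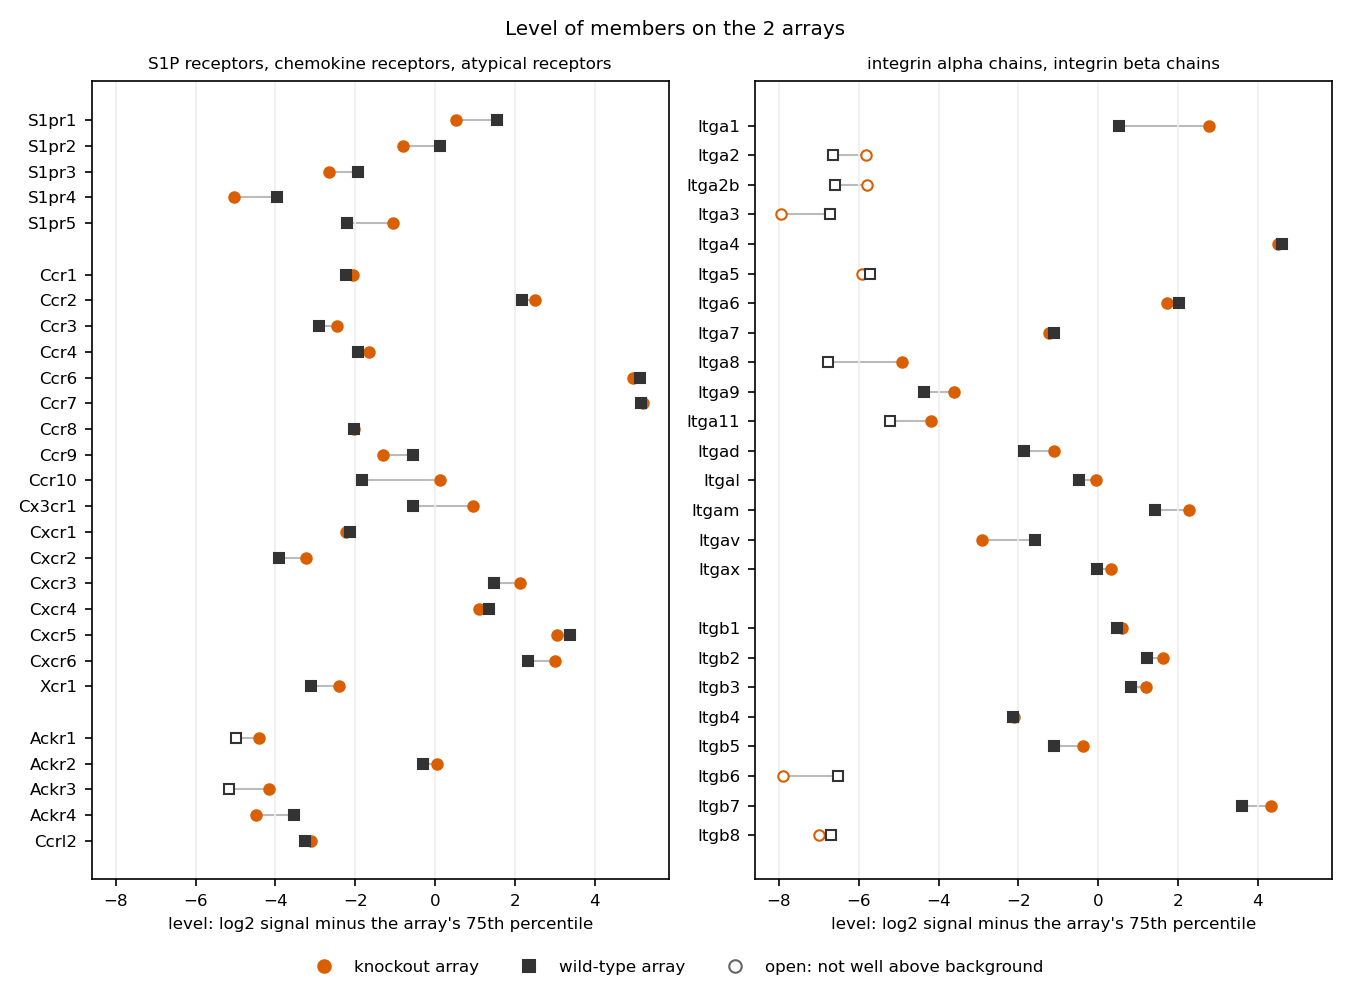
Level of 51 of the 52 members on the knockout array (orange circles) and the wild-type array (black squares), as log2 signal minus the array's 75th percentile, 1 array each. Open symbols mark spots not well above background, and only the 2 symbols of 1 gene may be compared. S1pr1 to S1pr4 and Itgav have their knockout symbol on the left, while S1pr5, Ccr10, Cx3cr1 and Itga1 have it on the right.

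The S1P receptor family was split, with 4 of 5 receptors lower on the knockout array and 1 higher. S1pr1, the egress receptor of T and B cells that endothelium also uses, gave a signal of 745 on the knockout array and 1590 on the wild-type array. Its difference of -1.03 ± 0.20 makes it 2.04-fold lower. S1pr2, whose receptor restrains migration and holds B cells in germinal centres, gave 297 on the knockout array and 593 on the wild-type array, a difference of -0.93 ± 0.20 that stayed just within 2-fold. S1pr3, a receptor of vascular and stromal cells, gave 82.7 on the knockout array and 143 on the wild-type array, a difference of -0.72 ± 0.21.

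S1pr4, a receptor confined mainly to blood cells, was the dimmest probe of the family, at 15.8 on the knockout array and 34.9 on the wild-type array. It was 2.11-fold lower (-1.08 ± 0.35). With the 12958 genes split into 4 classes of equal size by mean level, S1pr4 lay in the dimmest, where 9.04% of genes were lower by at least 2-fold. S1pr1 lay in the next to brightest class, where 2.01% were. S1pr5, which lets NK cells leave lymph node and bone marrow, was the exception at 252 on the knockout array and 117 on the wild-type array, 2.25-fold higher (1.17 ± 0.21).

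The directions held in all 11 other settings tried (10 for S1pr4, which a filter on signal removed from the eleventh), in which S1pr1 ranged from -1.04 to -0.79, S1pr2 from -0.93 to -0.69, S1pr3 from -0.92 to -0.48, S1pr4 from -1.29 to -0.87 and S1pr5 from 0.31 to 1.37. Settings that change only the filter on genes, or average a gene's probes, leave a 1-probe gene's value as it was, here and below. They cannot test it, and keeping outlier-flagged spots left these calls as they were. With another scaling or column, S1pr1 was past 2-fold with quantile normalization, loess and the deposited table. It was not with median centring, normexp or the background-subtracted column. S1pr4 was past 2-fold with normexp alone, and S1pr5 in each except normexp, its low end. Each of these receptors has 1 probe, so no second probe checks them.

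Promoters are shown for the members past 2-fold that have an entry in the RefSeq promoter table of GRCm38.p6, 5 of 7, each 250 bases before to 50 after an annotated start, in the table's orientation. Capitals mark CACCC on either strand (GGGTG on the strand printed), the core of the sites bound by Krüppel-like factors, since KLF2 is the known activator of S1pr1. S1pr1 itself and Ccr10 have no entry, so no S1pr1 promoter was searched and the marks bear on other genes only. The pair from the S1P family that lay on opposite sides is given first.
S1pr4, chr10:81500088-81500387, minus strand: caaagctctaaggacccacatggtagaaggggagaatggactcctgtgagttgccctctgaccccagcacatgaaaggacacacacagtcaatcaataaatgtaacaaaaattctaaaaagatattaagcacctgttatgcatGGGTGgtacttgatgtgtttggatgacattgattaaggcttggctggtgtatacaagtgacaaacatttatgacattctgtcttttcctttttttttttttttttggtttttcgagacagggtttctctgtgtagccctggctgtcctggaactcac
S1pr5, chr9:21248394-21248693, minus strand: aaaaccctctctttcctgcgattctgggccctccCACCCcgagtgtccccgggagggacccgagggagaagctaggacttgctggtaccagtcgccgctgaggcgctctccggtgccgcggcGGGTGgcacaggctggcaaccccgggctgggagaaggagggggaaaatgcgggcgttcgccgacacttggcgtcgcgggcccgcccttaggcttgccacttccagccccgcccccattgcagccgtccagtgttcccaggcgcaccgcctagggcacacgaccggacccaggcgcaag
S1pr4 holds 1 such match and S1pr5 holds 2. In 27 of the 40 members with a 300-base entry the motif was found at least once, and in 56.7% of the 27025 promoters of the table, so a match is common. The Sp-type motif GGGCGG, on either strand, was found 2 times in S1pr5 and not in the S1pr4 window, with no overlap with CACCC, and 35.9% of all promoters hold it.

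Genes that make, move and remove S1P did not differ by 2-fold. Measured on both arrays were 9 of the 10 listed, 8 of them higher and 1 lower, with a median of 0.29 (0.096 with normexp, 6 higher). Sphk1, a kinase that makes S1P, differed by 0.67 ± 0.22 (-0.15 with normexp) and Sgpl1, the lyase that destroys it, by 0.47 ± 0.20. Spns2, the endothelial exporter that supplies lymph, differed by 0.45 ± 0.20.

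Among 8 regulators of egress, 1 was past 2-fold and the median was 0.24. Ripor2, an inhibitor of RhoA in T cells, gave 199 on the knockout array and 659 on the wild-type array, 3.17-fold lower. Klf2 differed by 0.32 ± 0.20, Foxo1, which drives Klf2, by 0.46 ± 0.20, and Cd69, whose protein takes S1PR1 off the cell surface, by 0.38 ± 0.20.

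Marker lists of 4 cell classes that carry S1P receptors stand beside these values. All 8 T cell markers were above background on both arrays, 4 higher and 4 lower, with a median of -0.04 that turned to 0.23 with normexp. Cd3e was 2.18-fold lower (-1.13 ± 0.20), while Cd28 differed by -0.81 ± 0.20, Cd3g by -0.71 ± 0.20 and Lat by 0.92 ± 0.20. The summed T cell signal was 61.3 times the 75th percentile on the knockout array and 64.1 times on the wild-type array. Without Cd3g, the brightest gene of the list, that order turned, with 50.4 times on the knockout array and 46.3 times on the wild-type array. Of the 8 B cell markers above background on both arrays, 7 were lower on the knockout array (5 with normexp, 4 in the background-subtracted column), with a median of -0.32 and a summed signal of 171 times the 75th percentile against 199 times on the wild-type array. Without Ms4a1, the brightest gene of that list, the sum was 102 times on the knockout array and 106.5 times on the wild-type array. All 7 markers of stroma and endothelium were above background on both arrays, 5 higher and 2 lower, with a median of 0.85 and a summed signal of 11.8 times the 75th percentile on the knockout array and 7.02 times on the wild-type array. The 2 lower were Pecam1 (-0.44 ± 0.21) and Cdh5 (-0.04 ± 0.21). Higher by over 2-fold were Lyve1 (2.69-fold), Col1a2 (2.42-fold) and Pdgfrb (2.32-fold, 0.55 on the log2 scale with normexp). Among 7 markers of CD8 and NK cells, all above background on both, 6 were higher (4 with normexp) with a median of 0.40, and the summed signal was 59.6 times the 75th percentile on the knockout array and 25.1 times on the wild-type array. Most of that sum is Klra1, an NK cell receptor gene, without which it was 12.1 times on the knockout array and 8.95 times on the wild-type array. The rest of the list was split. Klrb1c was lower (-0.19 ± 0.22), and Ncr1 (0.64 ± 0.23) and Prf1 (0.28 ± 0.22) turned to -0.42 and -0.41 with normexp. Cd8a, Cd8b1 and Eomes stayed higher in the other settings. The part of these cell classes in the S1P receptor values was not tested.

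All 18 chemokine receptors were above background on both arrays. Of these, 12 were higher and 6 lower on the knockout array, 2 by at least 2-fold upwards and 0 downwards, and 6 lay within their scanner error of 0. The median of 0.23 turned to -0.14 with normexp, under which 7 of the 18 were higher.

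Ccr10, a receptor for skin and mucosal chemokines on skin-homing T cells and plasma cells, gave 570 on the knockout array and 154 on the wild-type array. It was 3.87-fold higher (1.95 ± 0.21), rank 38 from the highest of 12958 genes. Cx3cr1, the fractalkine receptor of monocytes, macrophages and cytotoxic effector cells, gave 1000 on the knockout array and 369 on the wild-type array, 2.84-fold higher (1.503 ± 0.20). Its second probe, at 49 and 28.2 on the same arrays, differed by 0.86 ± 0.33. Both genes were past 2-fold in all 11 other settings, Ccr10 between 1.14 and 2.17 and Cx3cr1 between 1.18 and 1.76. The promoter of Cx3cr1 holds 2 CACCC matches, marked as above.
Cx3cr1, chr9:120068247-120068546, minus strand: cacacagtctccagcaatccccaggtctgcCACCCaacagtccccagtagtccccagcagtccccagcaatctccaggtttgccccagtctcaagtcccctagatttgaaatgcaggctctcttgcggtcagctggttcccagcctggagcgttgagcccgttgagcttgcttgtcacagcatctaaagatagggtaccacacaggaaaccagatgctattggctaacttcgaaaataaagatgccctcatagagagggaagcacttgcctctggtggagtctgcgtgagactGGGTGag
Cx3cl1, the only ligand known for CX3CR1, was 2.11-fold higher too (104 on the knockout array, 51.6 on the wild-type array), although -0.26 with normexp. Ccl28, a ligand of CCR10, read 11 on the knockout array and 8.1 on the wild-type array, above background on the first alone, and allows no bound above 1.

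Cxcr3, the receptor for interferon-induced chemokines on TH1 cells, gave 2280 on the knockout array and 1520 on the wild-type array, a difference of 0.65 ± 0.20. Cxcr6, which keeps effector cells in liver and lung, gave 4170 and 2730 by its brighter probe and 3160 and 2130 by the other, differences of 0.68 ± 0.20 and 0.63 ± 0.20. The 2 probes of Cxcr6 thus agreed within their errors. Both genes remained positive in all 11 other settings, Cxcr3 from 0.62 to 0.99 and Cxcr6 from 0.64 to 0.96.

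Ccr4, Ccr8 and Ccr3 were within 2-fold, with no settled direction. Ccr4, which binds CCL17 and CCL22, gave 165 on the knockout array and 143 on the wild-type array (0.27 ± 0.21). Ccr8, a receptor of TH2 and regulatory T cells, gave 127 and 133 (0.00 ± 0.21). Ccr3, the eotaxin receptor of eosinophils and TH2 cells, gave 95.1 and 73.1 (0.44 ± 0.23). With normexp these 3 differences were -0.27, -0.47 and -0.46, so no direction is given for them. Beside Ccr3, markers of mast cells and basophils were above background on both arrays for 5 of 6 genes (Ms4a2 on neither), 4 of them higher by the 75th percentile and 2 with normexp, with a summed signal of 2.26 times the 75th percentile on the knockout array and 0.946 times on the wild-type array.

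Ccr7, Cxcr5, Cxcr4 and Ccr6, receptors that place lymphocytes inside lymphoid tissue, were within 2-fold. Ccr7, which brings T cells and dendritic cells into the T zone, gave 19100 on the knockout array and 19400 on the wild-type array (0.04 ± 0.20, and 0.36 with normexp). Cxcr5, the follicle receptor of B cells and follicular helper cells, gave 4300 and 5640 (-0.33 ± 0.20), and Cxcr4, the CXCL12 receptor, gave 1110 and 1390 (-0.26 ± 0.20). Both stayed negative in the 11 other settings. Ccr6, carried by B cells and TH17 cells, gave 16300 and 19200 (-0.17 ± 0.20) and turned to 0.13 with normexp. The part of the B cell markers given above in the Cxcr5 and Ccr6 values was not tested.

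Ccr9, the gut-homing receptor, was the lowest of the classical receptors, at 212 on the knockout array and 374 on the wild-type array (-0.75 ± 0.21), and ranged from -0.75 to -0.53 in the other settings. Retinoic acid induces CCR9 and α4β7 on T cells, and of 10 retinoic acid genes measured on both arrays (12 listed) 0 were past 2-fold. Of the 12, 11 were above background on the knockout array, 10 on the wild-type array and 1 on neither. That count of 0 thus does not cover the genes not measured on both. The median of the 10 genes measured on both arrays was 0.26, with 8 higher, and turned to -0.40 with normexp. Crabp2, a retinoic acid carrier, differed by -0.73 ± 0.22 and Rara, a retinoic acid receptor, by 0.57 ± 0.20.

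Ccr2, Xcr1, Cxcr2, Ccr1 and Cxcr1, receptors used mainly by myeloid cells, were all within 2-fold. Ccr2, the receptor of inflammatory monocytes that activated T cells also carry, gave 2940 on the knockout array and 2480 on the wild-type array (0.31 ± 0.20). Xcr1, the receptor of cross-presenting dendritic cells, gave 97.5 and 63.4 (0.69 ± 0.24), and Cxcr2 of neutrophils gave 55.4 and 36.1 (0.68 ± 0.29). Ccr1 gave 126 and 116 (0.18 ± 0.22), and Cxcr1 110 and 124 (-0.11 ± 0.21). With normexp Xcr1 was -0.34, Cxcr2 -0.67, Ccr1 -0.35 and Cxcr1 -0.50, and only Ccr2 of these 5 was positive (0.55).

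Beside these, all 7 matched macrophage and monocyte markers were higher on the knockout array (6 with normexp), with a median of 1.08 and a summed signal of 53.0 times the 75th percentile against 24.0 times on the wild-type array. The 6 dendritic cell markers were all above background on both arrays, 4 higher, with a median of 0.42 and a summed signal of 133 times the 75th percentile on the knockout array and 140.4 times on the wild-type array. Nearly all of that sum is Siglech, a gene of plasmacytoid dendritic cells, without which it was 3.62 times on the knockout array and 2.71 times on the wild-type array. The 5 matched neutrophil markers were above background on both arrays as well, 3 higher, with a median of 0.02 and sums of 245 and 231 times the 75th percentile. Their part in the values of Cx3cr1, Ccr2, Xcr1 and Cxcr2 was not tested.

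Of the 5 atypical receptors, 3 were above background on both arrays and 0 were past 2-fold in the processed signal. Ackr4, which clears CCL19, CCL21 and CCL25, gave 23.1 on the knockout array and 46.7 on the wild-type array, a difference of -0.95 ± 0.28, and was past 2-fold with normexp (-1.24). Ackr2, a scavenger of inflammatory chemokines, gave 539 and 443 (0.35 ± 0.20), and Ccrl2 gave 60.7 and 56.6 (0.17 ± 0.25). The Ccrl2 value is not settled, since it was -0.78 with normexp, 2.39 in the background-subtracted column and 6.34 in the authors' deposited table. Ackr3, the scavenger of CXCL12, was above background on the knockout array alone, at 29.1 against 15.2 on the wild-type array, at least 1.24-fold higher. Ackr1, the chemokine carrier of venules and red cells, was so too, at 24.6 against 17.3 on the wild-type array, at least 1.05-fold higher. Such a bound divides the bright level by that of the dim spot or of the dimmest spot well above background on the dim array, whichever is larger. The dimmest such spot read 24.6 on the wild-type array. The bound takes no account of scanner error, here and below. That error of the log2 difference was 0.61 for Ackr3 and 0.48 for Ackr1, so neither gene has a settled direction.

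Signal transducers below the chemokine receptors were all measured, and 0 of 22 were past 2-fold. The median was 0.18, with 17 higher and 5 lower, and 0.040 with 13 higher when probes of a gene were averaged. Grk5, a kinase that desensitises such receptors, differed by 0.997 ± 0.21, just under the threshold, and by 0.12 with normexp, and Arrb1, an arrestin, by 0.96 ± 0.20. Among homing chemokine genes 17 of 20 matched were above background on both arrays, 5 were higher by 2-fold or more and 0 lower by as much, and the median was 0.56. With normexp the median was 0.10, with 9 of the 17 higher (15 otherwise) and 3 past 2-fold. The 5 were Ccl8 (3.17-fold), Ccl7 (2.75-fold), Cxcl12 (2.51-fold), Ccl5 (2.30-fold) and Cx3cl1, of which Ccl7 turned to -0.15 with normexp and Cx3cl1 turned negative as given above. With the mean over probes Ccl25, a ligand of CCR9, was past 2-fold and lower. Cxcl12, a product of stromal cells, read 1750 on the knockout array and 730 on the wild-type array, while its receptor Cxcr4 was slightly lower.

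**Figure D2:**
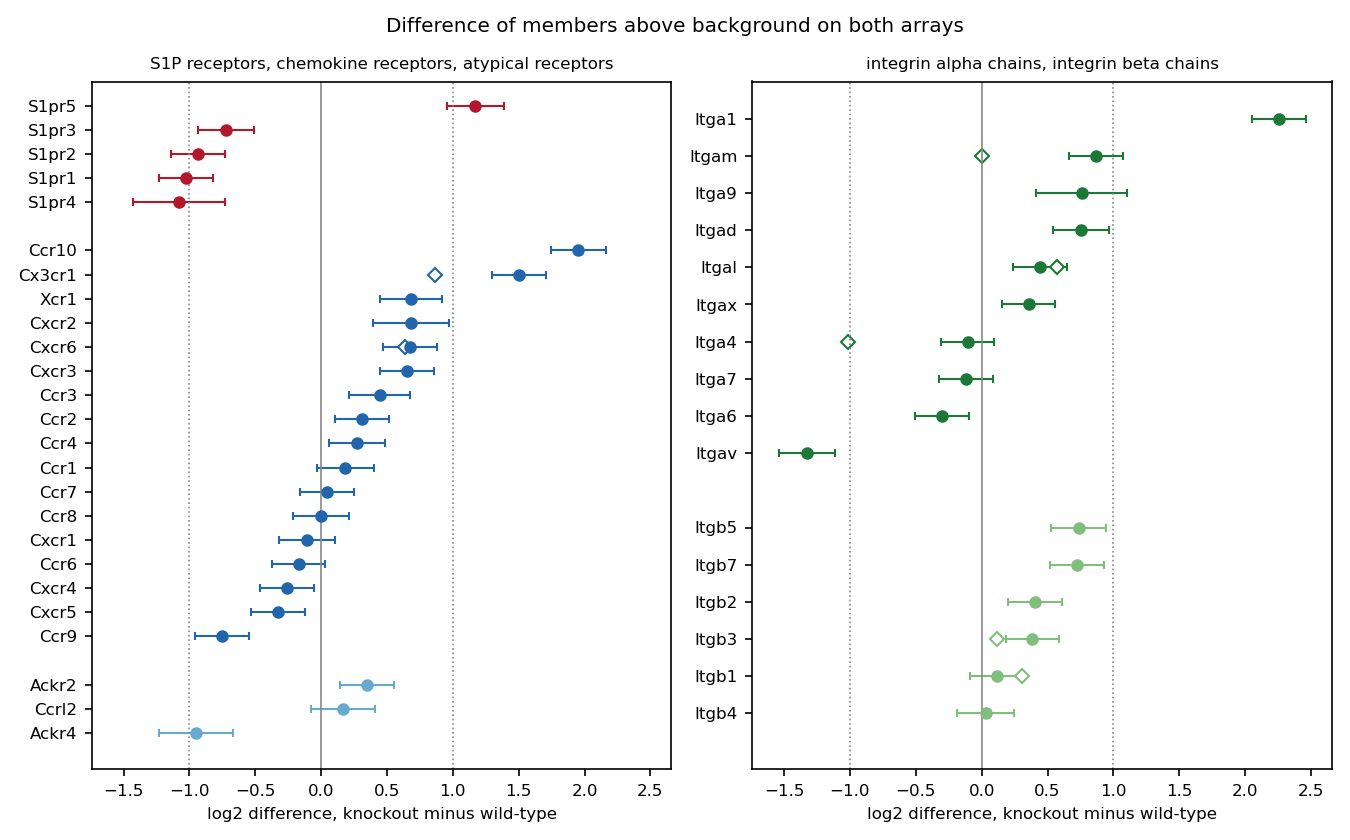
Log2 difference (knockout minus wild-type) of 41 of the 42 members above background on both arrays, 1 array per genotype, by family. Filled points are the probe used for each gene with its scanner error, open diamonds are further probes of the gene above background on both arrays, and dotted lines mark 2-fold. Itga1 at 2.26 and Ccr10 at 1.95 lie farthest to the right and Itgav at -1.33 farthest to the left.

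Of 16 integrin α chains, 10 were measured above background on both, 6 of them higher and 4 lower, with a median of 0.40. Itga1, whose α1 chain pairs with β1 as a collagen and laminin receptor of tissue-resident T cells, NK cells and stroma, gave 3560 on the knockout array and 780 on the wild-type array. That is 4.77-fold higher (2.26 ± 0.20), rank 13 from the highest of 12958 genes. Its second probe was not above background on either array (9.89 and 5.01). Itgb1, the β1 chain, differed by 0.12 ± 0.20 by 1 probe and 0.31 ± 0.21 by the other. The knockout minus wild-type difference of Itga1, less the 0.12 of Itgb1, was 2.14 ± 0.29.

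The Itga1 value depends on which column of the scanner file is read. On the knockout array its processed signal of 3560 was close to the median pixel intensity of 3606, but the background-subtracted column of the same spot held 595. In the authors' deposited table its knockout value stood at -9.001 log2 units from that of probes with like signal, and the recorded width of the spot was 10.8 against an array median of 49.2. The difference of Itga1 was -0.05 from the background-subtracted column and -6.76 from the authors' deposited table, and between 2.23 and 2.44 in the other 9 settings. Ccrl2 departed in the same way, by 2.998 on the knockout array and -2.998 on the wild-type array. In all, 31 of 39030 single-spot probes of the knockout array and 13 of the wild-type array departed by more than 0.5. Without the 3 members with such a spot, 3 of 39 were higher by 2-fold or more, 3 were lower by as much, and the median was 0.27.

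Itgav, the αV chain that with several β chains binds vitronectin, fibronectin and latent TGFβ, was the lowest member. It gave 69.6 on the knockout array and 183 on the wild-type array, 2.51-fold lower (-1.33 ± 0.21), and between -1.33 and -0.92 in the 11 other settings, past 2-fold in 10 of them but not with the mean over its probes. Itgav lay in the dimmest class of mean level, where 9.04% of genes were lower by at least 2-fold. Its second probe was dim too, at 15.3 on the knockout array and 22.9 on the wild-type array, and above background on the first alone. The partners of αV lay on the other side. Itgb3 gave 1190 on the knockout array and 953 on the wild-type array (0.39 ± 0.20), and Itgb5 gave 401 and 252 (0.74 ± 0.21). The knockout minus wild-type difference of Itgav was -1.72 ± 0.29 less that of Itgb3, and -2.06 ± 0.30 less that of Itgb5. The β6 and β8 chains, which with αV activate latent TGFβ, were not above background on either array. Promoters of the α1 and αV genes, the highest and lowest members, read as follows.
Itga1, chr13:115101915-115102214, minus strand: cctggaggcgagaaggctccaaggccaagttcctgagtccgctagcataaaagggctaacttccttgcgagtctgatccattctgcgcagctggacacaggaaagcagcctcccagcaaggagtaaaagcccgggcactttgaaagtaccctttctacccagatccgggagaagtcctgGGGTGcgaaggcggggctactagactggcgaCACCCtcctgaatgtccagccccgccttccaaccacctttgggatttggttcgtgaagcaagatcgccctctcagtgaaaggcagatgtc
Itgav, chr2:83724147-83724446, plus strand: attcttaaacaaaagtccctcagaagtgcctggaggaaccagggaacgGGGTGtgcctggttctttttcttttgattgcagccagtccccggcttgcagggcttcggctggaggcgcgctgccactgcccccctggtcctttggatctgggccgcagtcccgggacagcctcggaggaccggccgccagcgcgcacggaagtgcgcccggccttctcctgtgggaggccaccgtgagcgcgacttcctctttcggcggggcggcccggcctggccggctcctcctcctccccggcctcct
The capitals mark 2 CACCC matches for Itga1 and 1 for Itgav, and GGGCGG was found in Itgav alone of these, 1 time.

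The 5 chains of the β2 integrins of leukocytes were each higher, within 2-fold. Itgb2, the shared β2 chain, gave 1610 on the knockout array and 1270 on the wild-type array (0.41 ± 0.20). Itgal, the αL chain of LFA-1 that all T cells carry, gave 503 and 388 by the brighter probe and 332 and 234 by the other, differences of 0.44 ± 0.21 and 0.57 ± 0.21. Itgam, the αM chain of macrophages, neutrophils and NK cells, gave 2530 and 1450 (0.87 ± 0.20), whereas a second probe at 39 and 40.7 showed 0.00 ± 0.28. Itgad, the αD chain of splenic macrophages, gave 240 and 149 (0.75 ± 0.21). Itgax, the αX chain of dendritic cells, gave 647 and 529 (0.36 ± 0.20). All 5 stayed positive in the 11 other settings, Itgad from 0.18 to 1.02 and Itgam from 0.37 to 1.08, which passes 2-fold with the median as centre and in the background-subtracted column. The macrophage markers given above were higher on the same array, and their part in these values was not tested.

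The gut-homing pair α4β7 was uneven. Itgb7, whose chain pairs with α4 or αE, gave 10400 on the knockout array and 6600 on the wild-type array (0.72 ± 0.20), and ranged from 0.70 to 0.995 in the other settings. Itga4 gave 11800 and 13300 by its bright probe (-0.11 ± 0.20) and 36.9 and 77.9 by a dim one (-1.01 ± 0.24). The knockout minus wild-type difference of Itga4 by its bright probe, less that of Itgb7, was -0.83 ± 0.29. That compares changes between the arrays and not the amounts of the 2 chains. Madcam1, the gut ligand of α4β7, gave 433 on the knockout array and 496 on the wild-type array. Vcam1, the ligand of α4β1, was 2.56-fold higher at 4080 against 1670 on the wild-type array, but within 2-fold (0.82) with the mean over its probes.

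Itga6, the α6 chain of laminin receptors, gave 1710 on the knockout array and 2200 on the wild-type array (-0.30 ± 0.20), and stayed negative in the other settings. Itga7, a laminin receptor chain of muscle, gave 223 and 253 (-0.12 ± 0.21). Itga9, a chain that binds tenascin and VCAM1, gave 42.7 and 26.4 (0.76 ± 0.35) and turned to -0.78 with normexp. Itgb4 gave 120 and 123 (0.03 ± 0.21). All 6 β chains measured on both arrays were higher by some amount, but Itgb4 turned to -0.48 with normexp and Itgb1 and Itgb4 differed by less than their errors.

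Itga8, of smooth muscle and fibroblasts, and Itga11, of fibroblasts, were above background on the knockout array alone. Itga11 gave 28.7 on the knockout array and 14.6 on the wild-type array, at least 1.22-fold higher, and Itga8 gave 17.3 and 4.99, for which no bound above 1 can be given. The scanner error of the log2 difference was 0.54 for Itga11 and 1.45 for Itga8, so neither has a settled direction. Itga2, Itga2b, Itga3, Itga5, Itgb6 and Itgb8 were above background on neither array. Itga2b is the αIIb chain of platelets and megakaryocytes. Of 7 platelet markers 2 were above background on both arrays and Gp9, Gp1bb and Gp6 on neither, and the summed signal was 0.516 times the 75th percentile on the knockout array and 0.373 times on the wild-type array.

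Genes that activate integrins or tie them to actin showed 1 of 25 past 2-fold upwards and 1 downwards, with a median of 0.13. Fermt3, encoding kindlin-3, the kindlin of blood cells, gave 111 on the knockout array and 237 on the wild-type array, 2.04-fold lower. It was -1.03 with normexp. With median centring, quantile normalization, loess, the background-subtracted column and the deposited table Fermt3 was within 2-fold. Fermt2, encoding kindlin-2 of adherent cells, gave 164 and 84.7, 2.03-fold higher, but 0.04 on the log2 scale with normexp. Tln1, encoding talin, differed by 0.01 ± 0.20. Integrin ligands on cells had 3 of 10 past 2-fold, all higher, namely F11r (2.67-fold), Vcam1 and Jam3 (2.13-fold). With normexp Vcam1 alone stayed past 2-fold and higher, F11r was 0.95, Jam3 0.83, and Jam2 was lower by over 2-fold. With the mean over probes Vcam1 was 0.82. The list's median was 0.21 (-0.03 with normexp), and Icam1, a ligand of LFA-1, differed by -0.25 ± 0.23. Matrix ligands had 6 of 14 genes above background on both arrays, all 6 higher, with a median of 0.70 and Vtn, encoding vitronectin, 2.02-fold higher. With normexp Vtn was -0.14 and 4 of the 6 were higher.

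Selectins and the enzymes that make their ligands had a median of 0.28 over 12 genes (0.073 with the mean over probes), 2 of them past 2-fold and higher. These were Chst4 (2.28-fold, -0.31 on the log2 scale with normexp), a sulfotransferase of high endothelial venules, and Glycam1 (2.07-fold), a ligand that those venules secrete. Podxl, a further ligand of the list, was above background on the wild-type array alone, at 2.1 on the knockout array and 34.5 on the wild-type array, at least 3.68-fold lower. The scanner error of its log2 difference was 1.47, which that bound does not include. Genes of TGFβ latency and reception had a median of -0.04 over 13 genes, which turned to 0.15 with each array centred on its median. Of these Ltbp2 (2.68-fold) and Ltbp1 (2.44-fold, 0.41 on the log2 scale with normexp), which encode latent TGFβ binding proteins, were higher.

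**Figure D3:**
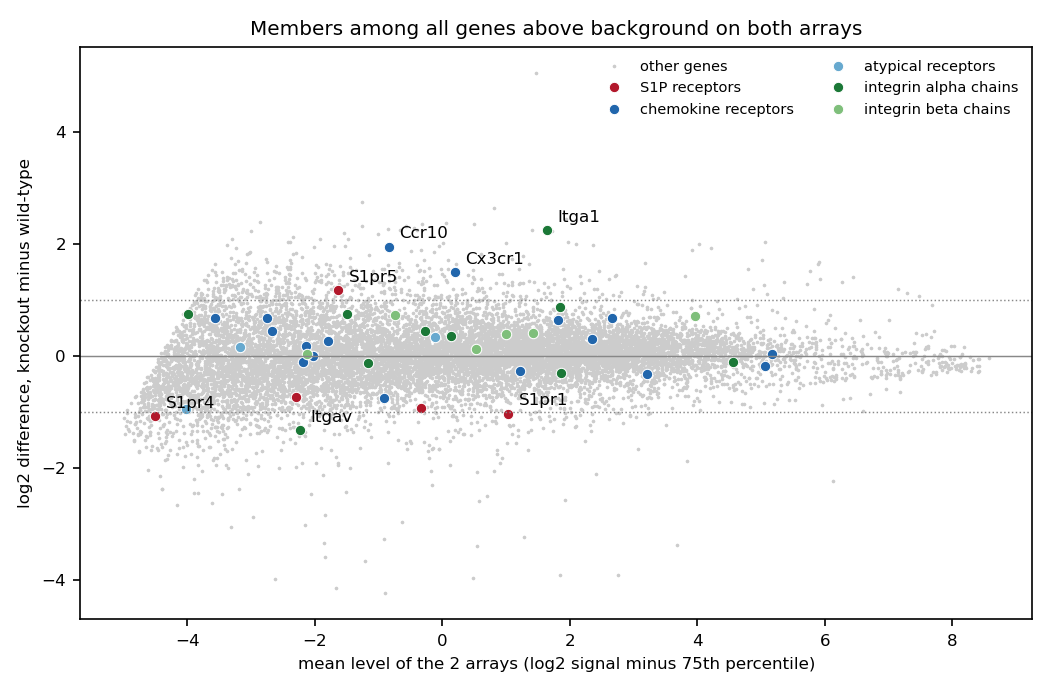
Log2 difference (knockout minus wild-type) against mean level for 12958 genes above background on both arrays (grey points) and 41 of the 42 members (coloured by family), 1 array per genotype, with dotted lines at 2-fold. The 7 members past 2-fold are named. The spread of all genes is wider at the left, where S1pr4 and Itgav lie, than around S1pr1 and Itga1.

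The precision of a single pair of arrays can be set beside these sizes. Among probes spotted repeatedly, the median SD of log2 signal within an array was 0.034 on the knockout array and 0.037 on the wild-type array, smaller than the scanner error of about 0.21 for most members. Different probes of 1 gene spread more. Over 2902 genes with several probes above background on both arrays, the gap between the highest and lowest probe had a median of 0.33 and a 75th percentile of 0.66, and in 40.2% of these genes the probes disagreed in direction. Of 7 members with several such probes, 0 had probes of opposite direction.

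**Figure D4:**
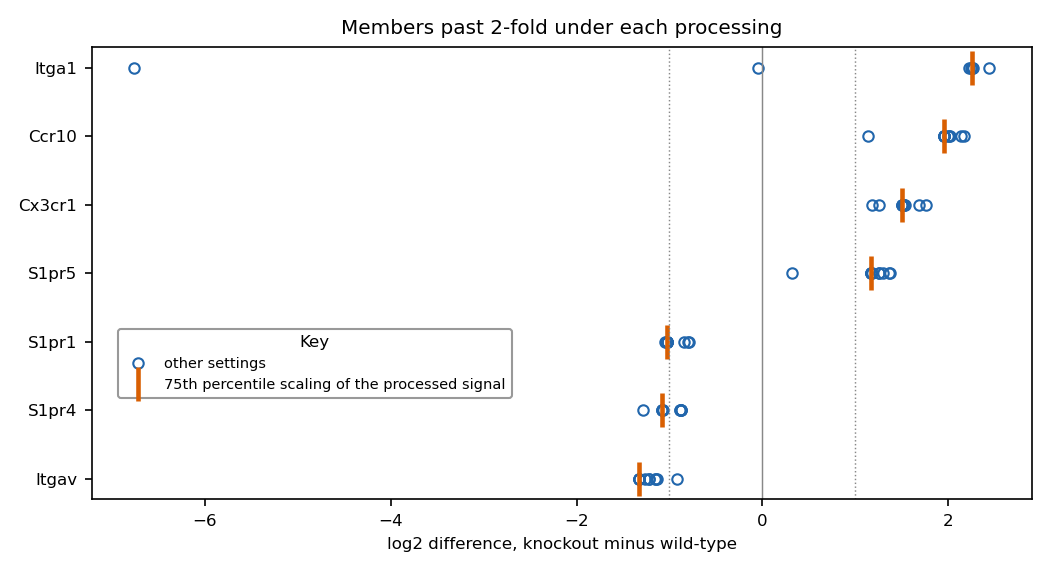
Log2 difference (knockout minus wild-type) of the 7 members past 2-fold, from processed signals with 75th percentile scaling (orange bars) and in up to 11 other settings (blue circles), with dotted lines at 2-fold. Itga1 has circles at -6.76 (the authors' deposited table) and -0.05 (background-subtracted column), and the circles of the other 6 keep the side of 0 of their bar.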

How the data were processed

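RNA of 1 knockout and 1 wild-type culture was hybridised to 1-colour (Cy3) arrays. Both arrays, of 1 slide and 1 scan, were read by Agilent's Feature Extraction software (11.0.1.1), per the file headers and processing notes. Spot intensities in the deposited files had background removed within the array, per the file headers, and carry an error and flags. A deposited table adds log2 values, with columns of equal median (5.36), whose normalization and centring are unstated.

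Control spots and outlier-flagged spots (138 on the knockout and 228 on the wild-type array) were left out, no gene spot was saturated, spots of a probe were averaged, and log2 processed signals were scaled to the 75th percentile. Probes carry accessions, of which 27220 of 39411 matched a symbol in RefSeq for GRCm38.p6, and the headers name another build, so no gene coordinates are given beyond the RefSeq promoters. A gene was represented by its probe of highest mean level among those above background on at least 1 array. Members, pathway lists and cell markers were chosen with earlier results of these data known. The naming rule takes members past 2-fold, on 1 array only, brightest or most different in a family, with partner chains, and genes of the pathway lists past 2-fold or the 2 most different. It does not extend to the cell markers, of which some past 2-fold are not named. Alternatives used limma 3.58.1 in R 4.3.3 (loess span 0.4, normexp offset 50 on the median intensity). Values of 1 member and 1 listed gene are not reported here. The scaling and calling were tested on simulated data. Python 3.11.15 and pandas 2.3.3 were used.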

Additional observations from a re-analysis of the deposited data

How the results depend on the processing

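Beside the values given above, the count of members at least 2-fold higher (4 of 42) was 13 at 1.5-fold and 2 at 3-fold. It was 7 of 42 from the background-subtracted column, where 7.56% of all genes were as much higher. With members above background on 1 array added it was 7 of 46, against 7.24% of genes so filtered. With all members it was 7 of 52, against 5.33% of all genes. The count at least 2-fold lower (3 of 42) was 7 at 1.5-fold and 0 at 3-fold. It was 1 with each array centred on its median, against 2.25% of all genes. With all members it was 5 of 52, against 20.8% of all genes. Over all genes 11% were 1.5-fold higher and 12% 1.5-fold lower, and 0.656% and 0.864% 3-fold. The median of 0.23 was -0.086 with normexp and 0.50 from the background-subtracted column, and the causes were not tested. Itga1 turned to -0.047 in the background-subtracted column and to -6.76 in the authors' deposited table. Leaving out the 3 members whose spots departed was chosen after seeing the data. Dim probes limit S1pr4, Itga9, Ackr4, Itgav, S1pr3, Xcr1, Cxcr2, Ccr3, Cxcr1 and Ccrl2, which lay in the dimmest class of mean level. No paired analysis was possible because each genotype has 1 array.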
